A study of Homo sapiens with 7 samples.

Results

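The annexin A2 gene ANXA2, 7 other annexin genes (ANXA1, ANXA3, ANXA4, ANXA5, ANXA6, ANXA7 and ANXA11) and 2 genes of their S100 partner proteins (S100A10 and S100A6) were followed in HCT116 cells, a human colorectal carcinoma line. The 10 genes were taken by symbol from the 15659 gene symbols counted in the mRNA libraries. They were chosen by a measured value: ANXA2 ranked 2 by p of the 8921 genes tested in the contrast of miR-148a-3p with a control miRNA, and the others were added as its relatives and binding partners. The differences between those groups are therefore given below as a description of the 10 genes, not as evidence that annexins respond. All 10 had enough counts to be tested.

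Both groups carried a DROSHA knockout, a gene for the nuclear enzyme that releases microRNA precursors, and differed in the transfected small RNA. There were 3 libraries with control miRNA and 3 with miR-148a-3p, made from RNA harvested 48 h after transfection. The sources used here do not give the number of knockout clones, the control miRNA's sequence or the amount transfected. No label calls the replicates separate cultures; p-values then cover only the spread of these libraries, which may be technical. Reads started at oligo-dT primers near the 3' ends of transcripts. A level in CPM (counts scaled to a common library total with TMM factors) thus does not grow with transcript length, and levels of different genes were set side by side on this scale.

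Annexins are cytosolic proteins that bind acidic phospholipids of membranes when calcium rises, through a conserved core of repeats; their N-terminal tails differ and carry the binding sites for partners. S100 proteins are small calcium-binding dimers. The best known pair is annexin A2 with S100A10, in which a dimer of S100A10 joins a pair of annexin A2 molecules into a tetramer at the inner face of the plasma membrane, where it takes part in exocytosis, membrane repair, anchoring of the giant protein AHNAK and, at the cell surface, plasminogen activation. In epithelial cells annexin A2 is also a link between membrane and cortical actin.

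The transfected microRNA shares its seed, the bases that pair with target messages, with 2 other human microRNAs in RefSeq (GRCh38.p14). The 3 mature sequences are shown because the treatment is defined by the first of them; capitals mark bases 2 to 8, the seed.
miR-148a-3p: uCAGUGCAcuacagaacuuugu
miR-148b-3p: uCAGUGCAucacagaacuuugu
miR-152-3p: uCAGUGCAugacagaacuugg
MIR148A lies on chromosome 7, with the mature 3p arm at 25949922 to 25949943 on the minus strand. Counting from the 5' end of miR-148a-3p, miR-148b-3p differs by C9U and U10C, and miR-152-3p by C9U, U10G and U20G, all outside the seed. Annexin transcripts were not searched for matches to this seed here, because transcript sequences were not used.

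The mRNA libraries of the control group held 876131 to 1069154 counts and the miR-148a-3p libraries 630142 to 1564125. DROSHA itself had 31, 16 and 16 reads under the control miRNA and 20, 15 and 13 under miR-148a-3p; the deleted part of the gene is not stated, so these reads do not check the knockout, which both groups share. The 8 epithelial markers searched (EPCAM, CDH1, keratins and claudins) were all counted, though CDH1 had 44 reads in all. They summed to 1776 to 2052 CPM under the control and 1720 to 1891 CPM under miR-148a-3p. Most of the control sum was KRT18 (1155 CPM) and KRT19 (455 CPM). EPCAM (22.4 CPM), CLDN7 (25.0 CPM) and CLDN3 (11.6 CPM) lay below the fibroblast marker COL1A1 (58.1 CPM). Of the 7 tested, 3 were fitted lower and 4 higher, with KRT8 lowest at −0.55 (SE 0.21, adjusted p by edgeR = 0.626). Their part in the results below was not tested. Of 10 blood cell markers 8 were at 0, PTPRC, CD3E and CD34 among them. Of 10 fibroblast and endothelial markers 5 were at 0, and the list summed to 39.7 to 81.9 CPM and 33.1 to 64.2 CPM. On the first principal component of log2 CPM, with 29.8% of the variance, control replicate 1 (−31.4) and miR-148a-3p replicate 3 (34.2) lay farthest apart, and the others lay between −8.29 and 13.1. The log2 fold change of ANXA2 given below was −0.79 without the first of these libraries and −0.83 without the second.

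In the control cells ANXA2 was the most abundant of the 10 transcripts. It was measured at 2201, 1881 and 2159 CPM in the 3 control libraries and ranked 33 among the 8921 genes tested. S100A6 came next at 1207 ± 292 CPM (SD, n = 3), and the ranges of ANXA2 and S100A6 did not overlap. S100A10 followed at 348 ± 42.8 CPM, with 7.14, 4.78 and 6.33 reads of ANXA2 for each of its own. Below it ANXA6 (299 ± 25.0 CPM), ANXA1 (277 ± 42.3 CPM), ANXA5 (267 ± 41.4 CPM) and ANXA11 (219 ± 42.5 CPM) formed a group in which each neighbour's range overlapped the next, and the range of S100A10 overlapped that of ANXA6 as well. ANXA3 at 81.6 ± 24.7 CPM lay below all of these, its range overlapped that of ANXA7 (45.5 ± 12.4 CPM), and ANXA4 was lowest at 20.5 ± 3.19 CPM. The 10 genes together made up 0.447%, 0.467% and 0.509% of all counts in the control libraries. After miR-148a-3p the order was the same for the first 5, ANXA11 stood above ANXA5, and the ranges of ANXA3 and ANXA7 no longer overlapped while those of ANXA7 and ANXA4 did.

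**Figure D1:**
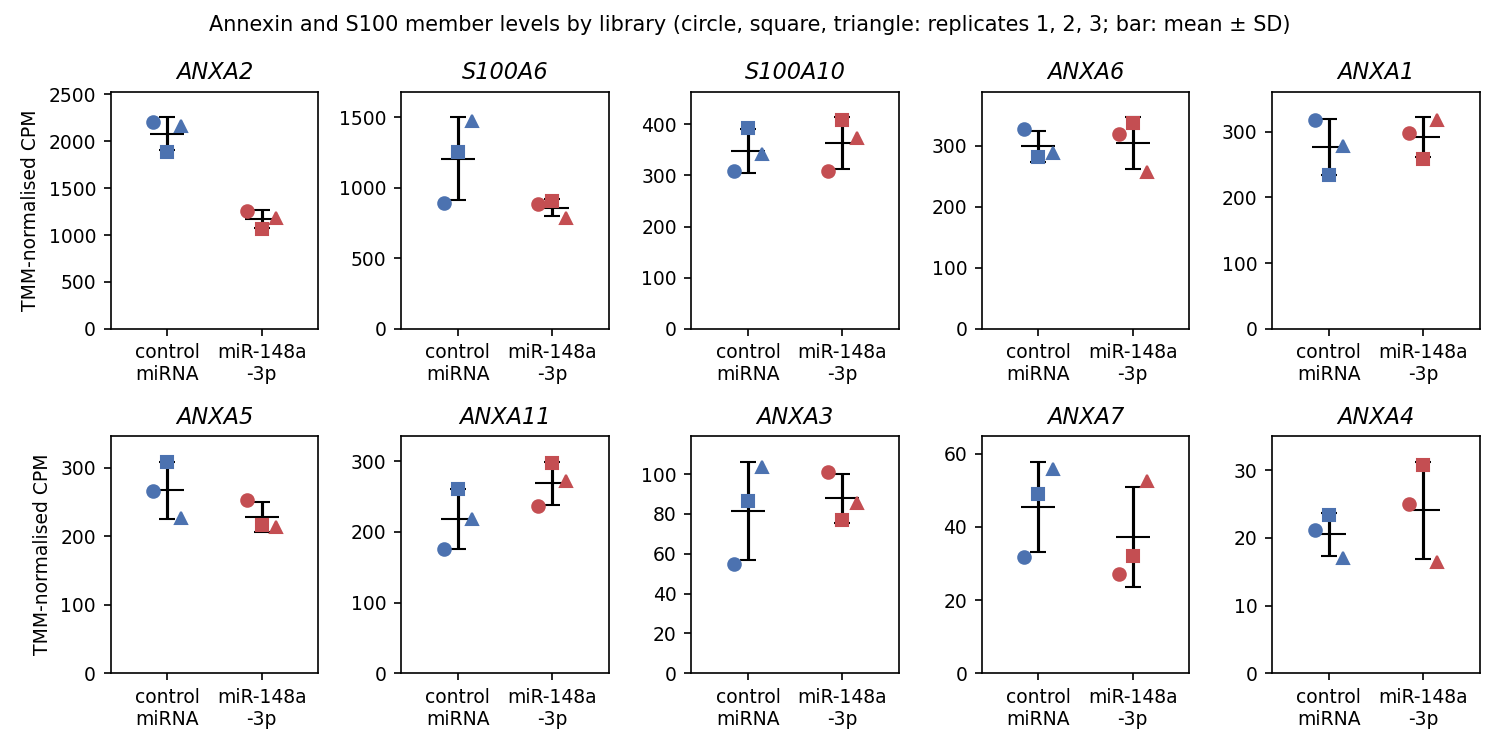
Levels of the 10 genes in TMM-normalised CPM (vertical axes, linear from 0, each with its own scale) in the control miRNA and miR-148a-3p groups; symbols are single libraries and black bars the mean ± SD of 3. ANXA2 is the gene whose groups lie apart, at 1881 to 2201 CPM against 1068 to 1262 CPM, while the points of the other 9 genes overlap between groups.

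With miR-148a-3p, ANXA2 was at 0.562 of its control level. Its reads numbered 2285, 1612 and 1898 under the control miRNA and 1914, 903 and 715 under miR-148a-3p, or 1262, 1068 and 1177 CPM after scaling. All 3 libraries with miR-148a-3p were below all 3 controls, and the lowest control library was 1881 CPM against a highest of 1262 CPM in the other group. The means were 2080 ± 174 and 1169 ± 96.9 CPM (SD, n = 3), and the log2 fold change was −0.83 (SE 0.16). In bulk RNA, fewer ANXA2-rich cells and less ANXA2 RNA in each cell cannot be told apart. The gene lies on chromosome 15 from 60347151 to 60397986 (GRCh38). Its rank by level went from 33 in the control group to 90 with miR-148a-3p.

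With edgeR and Benjamini-Hochberg adjustment over all genes, ANXA2 had an adjusted p of 0.0687, short of the 0.05 threshold. It called 1 gene lower (0.0112% of the 8921 tested) and 0 higher (0%), and 0 of the 10 genes followed here. At an unadjusted p below 0.05, 2 of the 10, ANXA2 and S100A6, were lower (background 3.4%) and 0 were higher (background 3.4%). At that level DESeq2 (background 2.52%) and limma-voom (background 3.43%) each also put 2 of the 10, both lower. DESeq2, with adjusted p-values for all genes, called ANXA2 alone of the 10 (adjusted p = 1.16e-04, background 0.0224% called lower), and limma-voom also called ANXA2 alone (adjusted p = 0.0232, background 0.0336%). ANXA2 was picked for its place in this comparison, so these calls add nothing to that choice.

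The difference in ANXA2 was also among the largest in absolute terms. Ordered by log2 fold change from the lowest, ANXA2 was at rank 158 of the 8921 genes. Among the 116 genes with a mean of at least 1000 CPM over both groups, ANXA2 had the lowest log2 fold change and S100A6 the next lowest; 52 of the 116 had a fitted value below 0. On the linear scale its difference was −911 CPM, and among all genes tested only the nuclear noncoding RNA MALAT1, at 15703 and 11357 CPM, had a larger negative one. These ranks describe the contrast from which ANXA2 was picked.

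**Figure D2:**
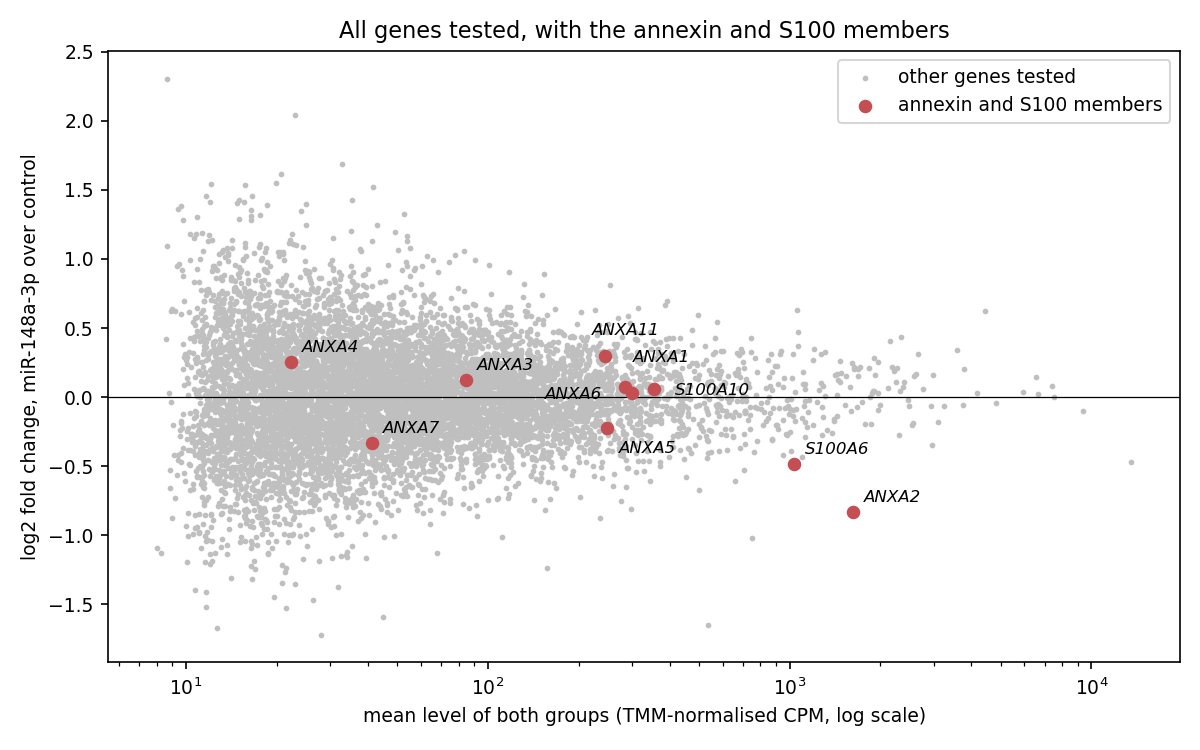
Log2 fold change of miR-148a-3p over control (vertical axis) against the mean level of both groups in TMM-normalised CPM (horizontal axis, log scale) for 8921 genes tested; red points are the 10 annexin and S100 genes. ANXA2 at −0.83 and S100A6 at −0.49 have the lowest values of the genes above 1000 CPM, and the other 8 lie between −0.34 and 0.30.

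For S100A10, the partner in the annexin A2 tetramer, the fitted difference was close to 0. It was read at 308, 393 and 341 CPM in the control libraries and at 309, 408 and 372 CPM with miR-148a-3p. The groups overlapped almost fully and the log2 fold change was 0.06 (SE 0.18; adjusted p by edgeR = 0.959). The number of ANXA2 reads per S100A10 read was accordingly 6.08 ± 1.20 in the control group and 3.29 ± 0.740 with miR-148a-3p (SD, n = 3). It was below the lowest control value (4.78) in all 3 miR-148a-3p libraries (4.08, 2.62 and 3.16). As ANXA2 was picked from this contrast and S100A10 was nearly level, the lower ratio follows largely from that choice. S100A10 lies on chromosome 1, from 151982915 to 151993859. In cells the S100A10 protein is known to depend on annexin A2 for its stability; protein was not measured here.

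S100A6, or calcyclin, a partner of several annexins, was lower on average but its groups touched. Its control libraries were at 895, 1253 and 1474 CPM and its miR-148a-3p libraries at 887, 906 and 789 CPM. Control replicate 1 lay within the range of the miR-148a-3p libraries, and the other 2 controls lay above it. The log2 fold change was −0.49 (SE 0.18; adjusted p by edgeR = 0.593). Without control replicate 1 it was −0.66 and edgeR called S100A6 (adjusted p = 0.0254) and ANXA2 (adjusted p = 0.00139), with 0.236% of genes called lower in that fit. Without control replicate 3 the log2 fold change of S100A6 was −0.31 (adjusted p = 0.82). S100A6 is on chromosome 1, from 153534599 to 153535991, within the S100 gene cluster.

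ANXA1, which inhibits phospholipase A2 signalling and acts as an anti-inflammatory mediator, was measured at 318, 233 and 279 CPM with the control and 299, 259 and 318 CPM with miR-148a-3p. Its log2 fold change was 0.07 (SE 0.18; adjusted p by edgeR = 0.955), and the groups overlapped. ANXA6, the annexin with a doubled core that binds membranes of the endocytic pathway, was at 327, 281 and 288 CPM and at 318, 337 and 257 CPM. Its difference was 0.03 (SE 0.18, adjusted p = 0.985). Neither difference was larger than the spread between libraries. ANXA1 had 1640 reads in total and ANXA6 1758.

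ANXA5, the phosphatidylserine-binding annexin used to stain dying cells, was at 266, 309 and 226 CPM in the control libraries and 253, 217 and 214 CPM with miR-148a-3p. The fitted difference was −0.22 (SE 0.19; adjusted p by edgeR = 0.862), and miR-148a-3p replicate 1 lay inside the control range. It was −0.11 without control replicate 2. ANXA11, a long-tailed annexin that binds S100A6 and tethers RNA granules to lysosomes, was at 176, 261 and 218 CPM and at 237, 298 and 272 CPM. Its fitted value was 0.30 (SE 0.19, adjusted p = 0.788), with control replicate 2 inside the range of the other group. It was 0.16 without control replicate 1. ANXA5 and ANXA11 lay next to each other in level and exchanged places: in the control group ANXA5 had the higher mean and with miR-148a-3p ANXA11 did. Their ranges overlapped in both groups.

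The remaining 3 annexins were sparse. ANXA3, a short-tailed annexin, was at 54.9 to 104 CPM in the control libraries and 76.9 to 101 CPM with miR-148a-3p, with a fitted difference of 0.12 (SE 0.25; adjusted p by edgeR = 0.942). ANXA7, or synexin, the other long-tailed annexin, was at 31.8 to 55.7 CPM and 27.0 to 52.7 CPM, a fitted log2 difference of −0.34 (SE 0.33, adjusted p = 0.886). ANXA4, an annexin of epithelial membranes, was at 17.1 to 23.3 CPM and 16.5 to 30.8 CPM, a fitted log2 difference of 0.25 (SE 0.40, adjusted p = 0.932). With 131 reads in 6 libraries, ANXA4 had the largest SE of the 10. With 1 library left out at a time, ANXA4 ranged from 0.067 to 0.43 and ANXA7 from −0.63 to −0.12.

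Counted over the 10 genes, 4 were fitted below 0 and 6 above, with a median of 0.04; over all genes tested the median was −0.0039 and 50.5% were lower. The groups did not overlap for 1 of the 10 that was lower, ANXA2 (background 6.59%), and for 0 that were higher (background 6.22%). The contrast chose ANXA2, so nothing is read from the first count.

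The lower sum of annexin RNA with miR-148a-3p lay in ANXA2. The 7 other annexins summed to 1195, 1244 and 1188 CPM in the control libraries and to 1260, 1251 and 1215 CPM with miR-148a-3p. Of all annexin reads, ANXA2 made up 64.8%, 60.1% and 64.4% under the control miRNA and 49.97%, 46.0% and 49.1% with miR-148a-3p. This share compares reads within a library and does not depend on the scaling between libraries. Its mean was 63.1 ± 2.62% and 48.3 ± 2.08% (SD, n = 3), a difference of −14.8 percentage points, between −16.3 and −13.6 with any 1 library left out. ANXA2 was picked for its place in this contrast, so the lower share follows largely from that choice. With the reads of a group added, the share of ANXA6 went from 9.11% to 12.7% of annexin reads, that of ANXA1 from 8.47% to 11.9% and that of ANXA11 from 6.54% to 10.7%. Such shares rise when that of ANXA2 falls, without higher levels of these genes. That of ANXA5, fitted lower, also went from 8.08% to 9.61%. Reads of ANXA2 per read of ANXA1 were 6.92, 8.06 and 7.75 under the control miRNA and 4.23, 4.12 and 3.70 with miR-148a-3p. The choice of ANXA2 bears on this ratio in the same way.

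**Figure D3:**
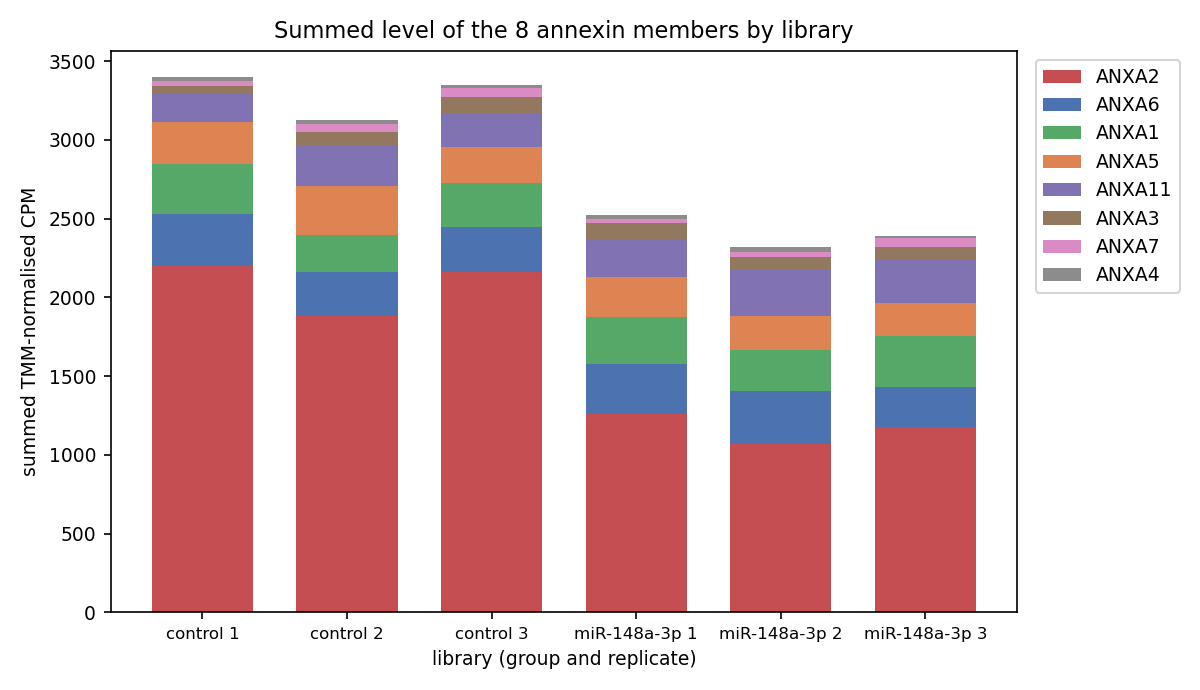
Summed level of the 8 annexin genes in TMM-normalised CPM (vertical axis, from 0) in each of the 6 libraries (horizontal axis), with 1 colour per gene and ANXA2 at the bottom. The ANXA2 segment is 1881 to 2201 CPM high in the controls and 1068 to 1262 CPM with miR-148a-3p, and the other 7 genes add 1188 to 1260 CPM in every library.

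The rest of the annexin family was near or at 0. ANXA10, an annexin of gastric epithelium, had 20 reads in 6 libraries, ANXA9 had 1 and ANXA2R, named as an annexin A2 receptor gene, had 14; none was tested. ANXA8, ANXA8L1, ANXA8L2 and ANXA13 had no row in the 6 libraries. ANXA2 has processed pseudogenes that could take some of its reads. Of these, ANXA2P2 had 2 reads, both in control replicate 3, and ANXA2P1 and ANXA2P3 had none, so that adding them to ANXA2 left its log2 fold change at −0.83 (SE 0.16). No gene whose RefSeq span overlaps that of any of the 10 genes had a read.

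Among the other S100 genes tested, S100A11 had the largest fitted difference over all 6 libraries. S100A11 is a partner of annexin A1 and annexin A2, and it was not one of the 10 genes. Its libraries were at 322, 460 and 407 CPM with the control and 519, 717 and 560 CPM with miR-148a-3p. All 3 libraries with miR-148a-3p lay above all 3 controls (as for 6.22% of all genes), with a log2 fold change of 0.60 (SE 0.18; adjusted p by edgeR = 0.398). It did not pass over all genes tested. There were 5.41 ± 1.38 ANXA2 reads for each S100A11 read in the control group and 2.01 ± 0.477 with miR-148a-3p (SD, n = 3). This ratio also depends on the choice of ANXA2 from the same contrast.

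S100A4, linked to cell motility, was the other abundant S100 gene at 734 ± 84.1 and 684 ± 176 CPM (fitted difference −0.10 on the log2 scale, SE 0.19; adjusted p by edgeR = 0.941). S100A13 (0.11, SE 0.22), S100A16 (−0.05, SE 0.23), S100A2 (−0.09, SE 0.55) and the S100P-binding protein gene S100PBP (0.15, SE 0.31) had fitted log2 fold changes within their SE, all at an edgeR adjusted p of at least 0.942. The span of S100A13 overlaps that of CHTOP and the span of S100PBP that of YARS1, both counted; use of strand in the counting is not stated. Of the 6 other S100 list genes tested, 3 were lower and 3 higher, with a median of 0.03, and 0 passed. S100A3 had 22 reads, S100P 7, S100A14 3, and S100A1, S100A5 and S100Z 1 each.

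**Figure D4:**
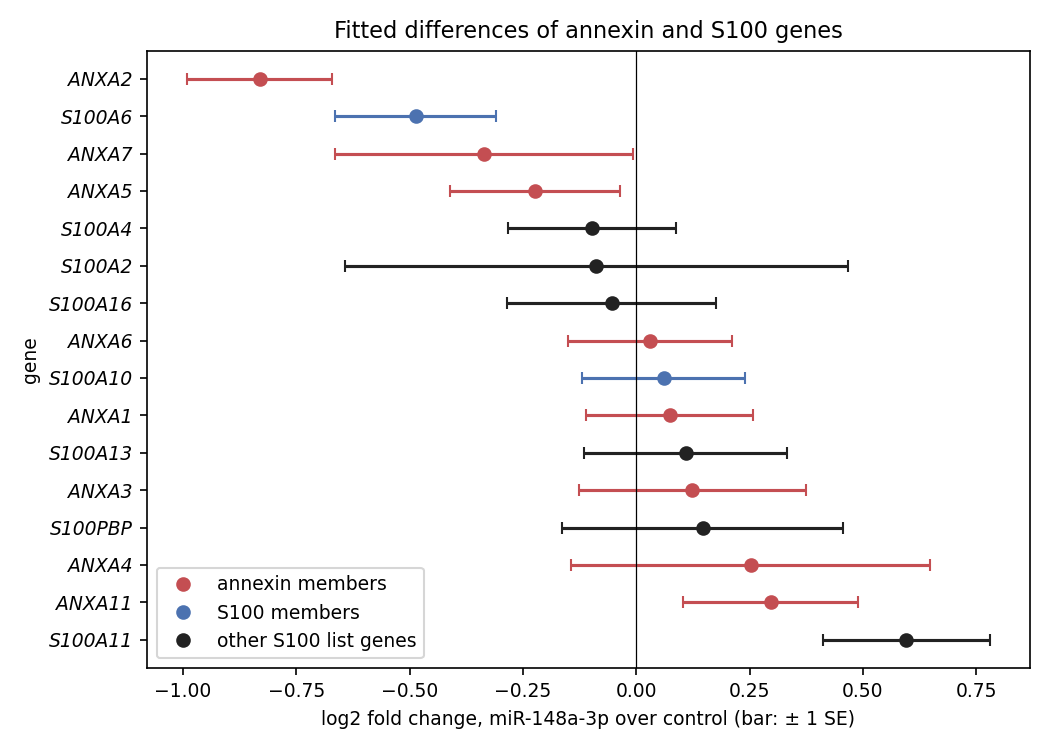
Fitted log2 fold change of miR-148a-3p over control (horizontal axis, bars ± 1 SE) for the 10 genes and the 6 other S100 list genes tested. ANXA2 at −0.83 and S100A11 at 0.60 are the outermost genes, and S100A10 at 0.06 lies close to 0.

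Genes linked with annexin A2 were listed separately: partners of the tetramer, signalling genes such as kinases and GTPases, and the plasminogen activation system. Of 20 listed, 15 were tested, 10 with a lower and 5 with a higher fitted value and a median of −0.04, and 0 passed with edgeR. AHNAK, the scaffold anchored by the annexin A2 and S100A10 complex, was at 264, 158 and 181 CPM in the control libraries and 134, 118 and 140 CPM with miR-148a-3p. The log2 fold change was −0.62 (SE 0.21; adjusted p by edgeR = 0.504), and −0.37 without control replicate 1, its highest library. RAC1, a GTPase of actin remodelling, was at 351, 313 and 371 CPM and at 283, 252 and 184 CPM (−0.51, SE 0.19, adjusted p = 0.593). The groups did not overlap for these 2 genes, both lower (6.59% of all genes), nor for HLTF, a DNA translocase, which was higher at 0.19 (SE 0.18; 6.22% of all genes). PPP1R12A, the myosin phosphatase targeting subunit, had −0.27 (SE 0.19), and −0.095 without miR-148a-3p replicate 2. In the plasminogen system, the activators PLAT (0.22, SE 0.28) and PLAU (−0.29, SE 0.42) and the PLAU receptor PLAUR (−0.01, SE 0.23) had fitted values within their SE. PLG, which encodes plasminogen, had no row.

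Calcium-triggered membrane repair, in which annexins seal torn membranes together with the ESCRT machinery, had 22 of 24 genes tested, 13 lower and 9 higher, a median of −0.07 and 0 called with edgeR. VPS4A, the ATPase that disassembles ESCRT filaments, had 0.69 (SE 0.27; adjusted p by edgeR = 0.626), and CHMP2A, a filament subunit, had −0.59 (SE 0.29, adjusted p = 0.725). CHMP1A, of the same machinery, had 0.44 (SE 0.29). PDCD6, or ALG-2, a calcium sensor that binds ANXA7 and ANXA11, had −0.41 (SE 0.30). The groups did not overlap for 2 of the 22 that were lower, CHMP2A and PDCD6 (6.59% of all genes), and 1 that was higher, VPS4A (6.22%). With 1 library left out at a time, CHMP1A ranged from 0.26 to 0.59 and PDCD6 from −0.53 to −0.27.

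The linkers between membrane and actin cortex had 16 of 17 symbols tested, 5 lower and 11 higher, with a median of 0.12 and 0 called; SLC9A3R1 was listed under both of its names. The actin crosslinker FLNA (0.37, SE 0.17, edgeR adjusted p = 0.725) and the membrane motor MYO1C (0.46, SE 0.19, adjusted p = 0.681) had fitted values above 0, and the spectrin SPTBN1 had −0.28 (SE 0.18). With 1 library left out at a time, FLNA ranged from 0.22 to 0.49 and SPTBN1 from −0.38 to −0.17. Ezrin (EZR), at 1652 CPM under the control and 1542 CPM under miR-148a-3p, had −0.10 (SE 0.16). The more abundant ACTN4, at 2033 and 1952 CPM, had −0.06 (SE 0.16).

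Calmodulins and other EF-hand calcium sensors, whose fold is shared by S100 proteins, had 11 of 12 genes tested, 5 lower and 6 higher, with a median of 0.02 and 0 called. RCN2, a calcium-binding protein of the secretory pathway, had −0.59 (SE 0.25; adjusted p by edgeR = 0.681), and control replicate 1 held its highest value, at 275 CPM. Without that library RCN2 had −0.14. SDF4 had 0.36 (SE 0.18), CALM3, a calmodulin gene, 0.35 (SE 0.18) and CIB1 0.47 (SE 0.30). With 1 library left out at a time, CALM3 ranged from 0.19 to 0.53 and CIB1 from 0.23 to 0.66. Beside these lists, the share of all genes at an unadjusted edgeR p below 0.05 was 3.4% in each direction. At that level the list around annexin A2 had 2 of 15 lower (AHNAK and RAC1) and 0 higher. The membrane repair list had 0 of 22 lower and 1 higher (VPS4A). The linkers had 0 of 16 lower and 3 higher, FLNA and MYO1C among them. The calcium sensors had 1 of 11 lower (RCN2) and 0 higher.

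Across the 6 libraries, 5 genes followed ANXA2 most closely among 4121 others with a mean of at least 50 CPM: CDC42BPA (Pearson r = 0.985), TMEM87A (0.972), LARS1 (0.972), DIS3 (0.970) and CEP350 (0.968). These values are a description of 6 libraries that fall into 2 groups, and they were taken as the highest of 4121. They were picked for tracking ANXA2, whose groups lie apart, so that lower values with miR-148a-3p follow largely from the choice: their log2 fold changes were −0.42 (SE 0.18), −0.61 (SE 0.20), −0.47 (SE 0.19), −0.27 (SE 0.23) and −0.33 (SE 0.19). Among the genes followed here, S100A6 was nearest to ANXA2 (r = 0.660, rank 481 of the 4121), then ANXA5 (0.535) and ANXA7 (0.311). ANXA1 (−0.059) and ANXA6 (−0.050) were near 0. ANXA3 (−0.224), S100A10 (−0.405), ANXA4 (−0.414) and ANXA11 (−0.776) lay on the other side. As the groups of ANXA2 lie apart, these r values depend in part on each gene's own difference between groups. S100A10 and ANXA11 varied together more than either did with ANXA2 (r = 0.838), with their lowest control value in the same library, control replicate 1. That pair is named because its r was the highest between any of the genes followed here, over only 6 libraries. ANXA6 with ANXA7 had r = −0.856.

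The genes beside ANXA2 on chromosome 15 were expressed at far lower levels. Within 1000000 bases of ANXA2, ICE2 (60419609 to 60479142), a subunit of an elongation complex for small nuclear RNA genes, had a log2 fold change of −0.46 (SE 0.31; adjusted p by edgeR = 0.796). BNIP2 had −0.26 (SE 0.29), GTF2A2 −0.12 (SE 0.28) and MYO1E 0.0011 (SE 0.32). ICE2 was at 48.8 and 36.1 CPM in the 2 groups, with overlapping ranges.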

How the data were processed

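For 6 oligo-dT primed 3' end mRNA libraries the authors deposited unnormalised gene counts, listed by symbol, and counts per microRNA isoform for 1 small RNA library of wild-type HCT116 cells. Per the submitters' processing notes, cutadapt, STAR, Bowtie2 and GRCh38 were used. The sources used here give neither their roles and versions nor the annotation, the counter or its strand setting. A gene missing from a list was read as 0.

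Counts were tested with edgeR 4.0.16 (R 4.3.3): TMM, filterByExpr by group, quasi-likelihood F test with group as the only term, and Benjamini-Hochberg adjustment over the 8921 genes kept. Scripts were tested on simulated data. DESeq2 1.42.0 and limma-voom (limma 3.58.1) were alternatives, besides other size factors, count filters, thinning, the replicate number as a block and single libraries left out. Correlations use log2 CPM with a prior count of 2. An exact permutation test of 3 against 3 libraries cannot give p below 0.1 and was not used. Replicate libraries differed with a chi-square of 2.58 to 5.80 per degree of freedom, against 1 under Poisson sampling, so none was counted as a duplicate.

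Members and lists were chosen with earlier results of these data known. Named were the 10 genes, their counted relatives, up to 4 genes per list with the smallest p and the 5 genes most like ANXA2. The plasminogen system genes, EZR, ACTN4, the neighbours of ANXA2 and the markers given with single values were named after their values were seen. Some listed genes count in their list's totals but are not reported here by name. All 10 symbols matched RefSeq (GRCh38.p14), the source of coordinates and sequences.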

Additional observations from a re-analysis of the deposited data

Results flagged for a closer look

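The small RNA library of wild-type HCT116 cells, which no comparison of annexin genes uses, held 253510 counts of miR-148a-3p among 3627859 microRNA counts (6.99%, Wilson 95% interval 6.96% to 7.01%). miR-148b-3p had 7365 counts and miR-152-3p had 189. Each exceeds 3 counts, the upper limit for a microRNA with no count. The interval covers counting error only. Counts of all isoforms listed under the same name were added, so they can include sequences that differ from those printed above. The knockout cells in which ANXA2 was measured are a different line, and their small RNAs were not analysed here.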

How the results depend on the processing

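ANXA2 was lower under every alternative run, with log2 fold changes between −0.90 and −0.77, and 0 to 2 of the 10 genes were called. It passed with DESeq2 (−0.83, adjusted p = 2.15e-05; 6 genes lower and 1 higher, 1 of the 10), whose filter left 1657 genes with an adjusted p. It also passed with DESeq2 without that filter, added after seeing the data (−0.83; 2 lower, 1 of the 10), with limma-voom (−0.83; 3 lower, 1 of the 10), without the count filter (−0.84, adjusted p = 0.00225; 11 lower, 7 higher, 1 of the 10) and after thinning (−0.83, adjusted p = 0.0252; 5 lower, 1 higher, 1 of the 10). With the replicate block it was −0.83 (adjusted p = 0.0293; 3 lower, 1 of the 10). Same-numbered libraries deviated together weakly (r = 0.133, 0.093 and −0.002). Control replicates 1 and 2 correlated best with their own number, and control replicate 3 with another. The labels state no pairing, and deviations within groups of 3 libraries cannot settle whether same-numbered libraries shared a batch. The cause of these gains was not tested. With 1 library left out, 1 to 22 genes were called lower, 0 to 4 higher and 0 to 2 of the 10; 22 genes called lower, and the call of S100A6, came without control replicate 1. ANXA2 then ranged from −0.90 to −0.77 with adjusted p from 0.00139 to 0.526. Of 170 alternative values for the 10 genes, 153 kept direction and side of the threshold, 8 passed it and 9 changed sign, all in ANXA1, ANXA3, ANXA6 and S100A10. Leaving out 1 library moved ANXA1 between −0.036 and 0.18, ANXA3 between −0.10 and 0.34, ANXA6 between −0.046 and 0.13, S100A10 between −0.033 and 0.17, S100A2 between −0.56 and 0.45, S100A4 between −0.22 and 0.10, S100A13 between −0.061 and 0.39, S100A16 between −0.23 and 0.30 and S100PBP between −0.012 and 0.27. ANXA6 was −0.042 after thinning, and S100A2 was 0.35 with limma-voom and 0.066 with the replicate block. Depth limits the sparse genes ANXA4, ANXA7 and ANXA3.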
